A study of Mus musculus with 9 samples.

Results

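The promoter windows of the Wnt, Fgf and Bmp ligand genes were examined for chromatin accessibility in differentiating mouse embryonic stem cells (mESCs). Members were the protein-coding genes named Wnt, Fgf or Bmp plus a number and an optional letter in GENCODE M21 on mm10, and the window of the genome-wide table that held the 5′ end of each gene was taken. Of 53 genes with such a name, Fgf4 was left out by the rule and Bmp2k because it encodes a kinase, which left 51 genes, of which 48 had a window with a value in every library (17 of 19 Wnt, 20 of 21 Fgf and 11 of 11 Bmp genes). They were 48 of 829493 complete windows in the table, and 19595 windows that held the 5′ end of other protein-coding genes served as the comparison. NOMe-seq (nucleosome occupancy and methylome sequencing) marks cytosines in GpC dinucleotides that no nucleosome covers, so a higher percent GpC methylation stands for more open chromatin. The cells were female F1 mESCs of the FVB and CAST strains, grown in 2i and then differentiated by weaning into DME HiHi medium. The undifferentiated library was made at day 0. Differentiating cells received a hairpin by viral transduction on day 2 and puromycin from day 3, and carried either the non-silencing control hairpin (Nons) or a hairpin against Smarcc1, which encodes a core subunit of the BAF nucleosome remodelling complex. Each arm gave 1 library at each of days 4, 5, 6 and 7, which made 9 libraries in all without replicates, so a difference between a pair of libraries has no replicate check.

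Wnt, Fgf and Bmp proteins are families of mostly secreted signals. Wnt ligands bind Frizzled and Lrp receptors and stabilise β-catenin, Fgf ligands bind receptor tyrosine kinases and activate the MAP kinase cascade, and Bmp ligands bind serine/threonine kinase receptors that phosphorylate Smad proteins. In the early embryo Fgf signalling drives the exit from naive pluripotency, and Wnt and Bmp signals then pattern the primitive streak and the mesoderm. The names also cover proteins of another kind, since Fgf11 to Fgf14 stay inside the cell and Bmp1 is a protease.

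The promoters of the families differ widely in the bases on which the assay depends. The 250 bases before the start listed in the RefSeq promoter table (GRCm38.p6, plus strand in each case, 5′ to 3′) are shown for the highest and the lowest member of each family by mean level over the libraries, among the 23 members whose upstream sequence lay wholly inside the measured window. Capitals mark every GC that the assay can read, that is GCA, GCC or GCT on either strand, including sites that share a base with a CpG on the opposite strand.
Wnt9a (chr11:59306680-59306929): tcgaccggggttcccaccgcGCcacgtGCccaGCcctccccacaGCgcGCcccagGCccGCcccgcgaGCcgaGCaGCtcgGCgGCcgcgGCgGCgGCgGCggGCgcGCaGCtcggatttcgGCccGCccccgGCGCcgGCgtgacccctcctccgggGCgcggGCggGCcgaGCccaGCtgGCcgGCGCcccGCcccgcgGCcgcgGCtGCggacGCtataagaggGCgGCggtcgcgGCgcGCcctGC
Wnt1 (chr15:98789607-98789856): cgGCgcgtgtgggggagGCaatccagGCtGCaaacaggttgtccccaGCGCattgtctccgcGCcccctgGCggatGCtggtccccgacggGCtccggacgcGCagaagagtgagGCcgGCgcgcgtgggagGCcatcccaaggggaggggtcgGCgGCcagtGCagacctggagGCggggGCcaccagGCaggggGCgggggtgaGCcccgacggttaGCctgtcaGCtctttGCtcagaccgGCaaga
Fgf5 (chr5:98253934-98254183): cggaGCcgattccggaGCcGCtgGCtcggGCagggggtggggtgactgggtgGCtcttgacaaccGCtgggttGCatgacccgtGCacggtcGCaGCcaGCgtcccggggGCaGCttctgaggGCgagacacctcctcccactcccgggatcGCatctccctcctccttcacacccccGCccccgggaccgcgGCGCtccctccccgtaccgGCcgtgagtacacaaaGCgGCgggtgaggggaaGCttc
Fgf7 (chr2:126034408-126034657): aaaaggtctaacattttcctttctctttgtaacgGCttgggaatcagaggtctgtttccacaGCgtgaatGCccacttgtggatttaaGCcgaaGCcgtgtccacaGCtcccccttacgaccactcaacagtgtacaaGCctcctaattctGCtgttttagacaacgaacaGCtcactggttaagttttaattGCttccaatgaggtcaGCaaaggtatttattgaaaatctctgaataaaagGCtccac
Bmp6 (chr13:38345466-38345715): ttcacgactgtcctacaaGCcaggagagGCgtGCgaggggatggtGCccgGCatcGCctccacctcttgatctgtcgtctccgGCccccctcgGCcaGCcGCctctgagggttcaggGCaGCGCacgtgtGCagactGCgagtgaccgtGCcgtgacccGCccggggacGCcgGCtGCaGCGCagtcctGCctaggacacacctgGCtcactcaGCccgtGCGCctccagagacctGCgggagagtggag
Bmp10 (chr6:87428744-87428993): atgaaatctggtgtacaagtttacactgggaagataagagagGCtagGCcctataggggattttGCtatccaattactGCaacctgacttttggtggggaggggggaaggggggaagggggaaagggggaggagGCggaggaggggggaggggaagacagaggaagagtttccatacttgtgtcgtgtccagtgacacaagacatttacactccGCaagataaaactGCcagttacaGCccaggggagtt
The upper sequence of each pair belongs to the higher member. These stretches held 42 readable GpC sites for Wnt9a, 26 for Wnt1, 23 for Fgf5, 12 for Fgf7, 28 for Bmp6 and 8 for Bmp10. Over the 32851 promoters of the RefSeq table the median was 16 sites, with 5th and 95th percentiles of 6 and 32, and 99.97% held at least 1. The same 250 bases held 48 CpG in Wnt9a and 23 in Wnt1, 24 in Fgf5 and 6 in Fgf7, and 22 in Bmp6 and 3 in Bmp10. In all, 34 of the 48 members had an entry in this table. The start it lists for Wnt9a lies downstream of the 5′ end of the RefSeq gene record, so the last part of that stretch is inside that record. For Bmp6 the RefSeq start lies 609 bp downstream of the GENCODE 5′ end, so the whole stretch shown is inside the gene by GENCODE.

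Library medians over the other promoter windows differed widely, from 8.88% in Nons at day 7 to 30.5% in Nons at day 5, and the deposited values were not normalised between libraries. Each member is therefore also given relative to other promoters, as its percent minus the median of the 19595 other promoter windows in the same library, in percentage points. Read depth per window is unknown, and no counting interval was possible. Of 7 promoters of pluripotency genes, 6 (all but Esrrb) stood above the other-promoter median at day 0, but so did 4 to 6 in each other library, and the count does not tell undifferentiated from differentiating cells. Hairpins act on RNA, so these values hold no check of the Smarcc1 knockdown. Members at 0% were 1 of 48 in Nons at day 6 (Fgf11) and 4 of 48 in the knockdown at day 7 (Fgf3, Fgf6, Fgf17 and Bmp8b), where 5.53% of other promoter windows were also at 0%.

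As a group, the ligand promoters were about as accessible as other promoters. The median member had a mean relative level of 0.846 points over the 9 libraries, against 0.895 for other promoter windows, and 29 of 48 members (60.4%) had a mean above the library medians, against 54.6% of the others. By family the median was 0.439 for Wnt, 2.59 for Fgf and 0.778 for Bmp. Taken instead as the mean over libraries of the family median, the level was 0.374 for Wnt, 0.00833 for Fgf and 0.940 for Bmp. The order of the families thus depended on the summary used. Mean levels ran from 6.13 points below (Fgf7, relative level -6.13) to 10.4 points above (Fgf15). None of the 48 windows stood above the other-promoter median in all 9 libraries, where 4.82% of other promoter windows did. Fgf7 alone was below it in all 9, where 4.89% of others were. The standard deviation of a member over the libraries had a median of 7.05 points, close to the 7.20 of other promoter windows, so that many members lay on both sides of the median.

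**Figure D1:**
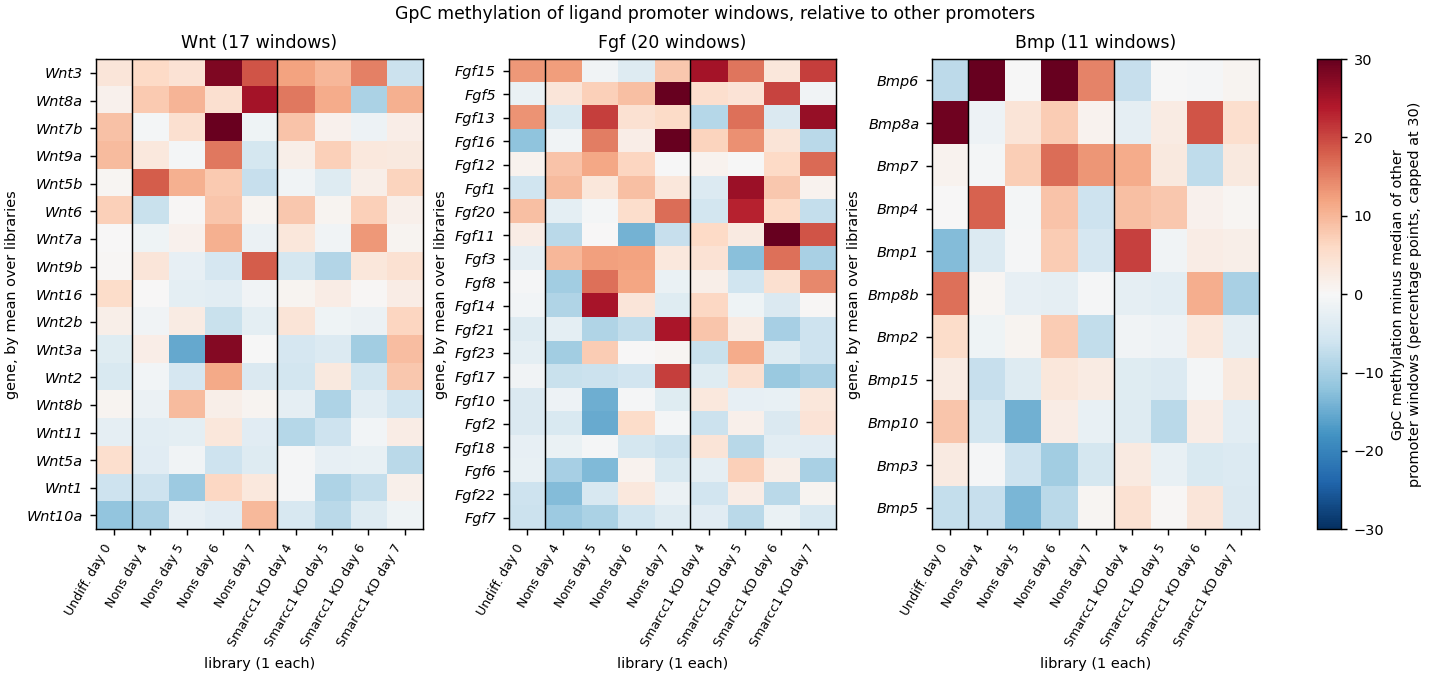
Relative GpC methylation of each ligand promoter window (rows, ordered by their mean over 9 libraries) in each library (columns), in percentage points from the median of 19595 other promoter windows and capped at 30. Most rows mix red and blue, Fgf7 is blue throughout, and the Nons day 6 column is red for 33 of 48 windows.

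Wnt3, which is needed to start the primitive streak, had the most open Wnt window (ENSMUSG00000000125.5, chr11:103772438-103774164). Undifferentiated cells gave 18.6% GpC methylation there. From day 4 to day 7 the Nons libraries measured 25.2%, 34.9%, 42.3% and 27.7%, and those of the knockdown 27.2%, 36.2%, 31.3% and 3.23%. It was above the other-promoter median in 8 of 9 libraries, with a mean relative level of 10.2 ± 9.94 points (SD over 9 libraries). Knockdown day 7 was the exception. The window lay almost wholly upstream of the gene, since the 5′ end stood 99.1% of the way along it.

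Wnt8a, expressed in the posterior embryo at gastrulation, was close behind with 8.56 ± 9.50 points (SD, 9 libraries). It began at 16.3% and measured, from day 4 to day 7, 27%, 40.7%, 19.1% and 33.8% with the control hairpin and 30.8%, 37.3%, 6.67% and 20.3% with the Smarcc1 hairpin, where day 6 was the library below the median. Wnt7b, which acts in lung and kidney development, had a mean relative level of 5.73 points that rested largely on Nons at day 6 (43.8%), beside 7.69% in Nons at day 7 and 14.5% in the knockdown at day 6.

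The lowest Wnt windows were those of Wnt10a, a signal of tooth and skin, Wnt1, which organises the midbrain, and Wnt5a, which acts largely without β-catenin in axis and limb outgrowth. Their mean relative levels were -3.94, -3.27 and -2.51 points. Wnt10a was above the other-promoter median only in Nons at day 7 (18.6%), and its lowest value was 3.13% at day 0. Wnt5a was above it only at day 0 (20%), and its values in differentiating cells ran from 1.61% in the knockdown at day 7 to 29.4% in Nons at day 5.

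Wnt3a, which maintains the posterior axis, had a mean relative level of 0.02 points made of unlike values. It stood at 41.9% in Nons at day 6 against 5.77% in the knockdown at day 6, and between 8.70% and 22.1% in the other 7 libraries. Wnt11, a signal for cell movement in gastrulation and kidney branching, was below the median in 7 of 9 libraries (mean relative level -2.44 points). The other Wnt windows (Wnt2, Wnt2b, Wnt5b, Wnt6, Wnt7a, Wnt8b, Wnt9a, Wnt9b and Wnt16) had means from -1.10 to 4.12 points. Wnt6 was above the median in 8 of 9 libraries, with a mean of 3.09 points.

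Among the Fgf genes the highest window was that of Fgf15 (ENSMUSG00000031073.6, chr7:144895689-144897305), the mouse gut hormone that restrains bile acid synthesis and a signal of the embryonic neural tube. It measured 28% in undifferentiated cells. The control series read 31.8%, 29.4%, 10.4% and 16.9% from day 4 to day 7, while the knockdown series read 40%, 42.4%, 19.6% and 30.3%. Only Nons at days 5 and 6 lay below the other-promoter median. Fgf3, an inner ear signal whose 5′ end lies 58.4 kb away, had a lower mean relative level of 3.71 points and ran from 0% in the knockdown at day 7 to 42.8% in Nons at day 5. Fgf4, left out of the members, was at 0% in undifferentiated cells, at 11.4%, 21.4%, 10.2% and 26.9% from day 4 to day 7 of the control series and at 12.9%, 20.2%, 7.41% and 9.62% of the knockdown series, a mean relative level of -3.87 points.

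Fgf5, a marker of cells that leave naive pluripotency, had a mean relative level of 8.59 ± 10.6 points (SD, 9 libraries). Its window (ENSMUSG00000029337.2, chr5:98253216-98255324) was at 13% in undifferentiated cells, below the other-promoter median, and lay above it in each control library (22.8%, 37.6%, 23.3% and 40% from day 4 to day 7). The knockdown gave 20%, 30.4%, 36.4% and 8.70%. Relative to other promoters, all 8 differentiating libraries were higher than the undifferentiated library (-2.04 points), the knockdown at day 7 by the least (-0.982). The same held for Wnt10a, Fgf1, Fgf16, Bmp1 and Bmp6, so it was not particular to Fgf5. In the other direction, Wnt5a, Wnt16, Bmp8a, Bmp8b and Bmp10 were lower than the undifferentiated library in all 8. Each pattern rests on 1 undifferentiated library, and the share of other promoters with either pattern was not counted.

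Fgf13, an intracellular Fgf of neurons on the X chromosome, came next with 7.74 points. Fgf8, which mesoderm needs to leave the primitive streak, had a mean of 3.39 points, with 47.1% in Nons at day 5 and 6.98% in Nons at day 7 as its extremes. Fgf7, the keratinocyte growth factor, was the lowest member of all, at 8.51% at day 0, between 5.06% and 21.1% in Nons and between 4.76% and 18.1% in the knockdown. Fgf22, which organises synapses, and Fgf6, a muscle signal, followed with means of -3.67 and -3.61 points. The other Fgf windows (Fgf1, Fgf2, Fgf10, Fgf11, Fgf12, Fgf14, Fgf16, Fgf17, Fgf18, Fgf20, Fgf21 and Fgf23) ranged from -3.08 for Fgf18 to 7.29 for Fgf16. The Fgf16 mean rested on 54% in Nons at day 7, and on 45.8% in Nons and 40% in the knockdown at day 5. Beside these stood 1.59% in the knockdown at day 7. Fgf13, Fgf16 and Bmp15 lie on the X chromosome, which undergoes inactivation in these female cells, and the values merge both alleles.

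Bmp6, known for the control of iron through hepcidin, had the highest mean and the widest spread of the Bmp windows (ENSMUSG00000039004.6, chr13:38344816-38346321). It was low in undifferentiated cells, at 7.14%. Control cells gave 56.5%, 30.4%, 51.7% and 23.8% from day 4 to day 7, and Smarcc1-depleted cells gave 8%, 26%, 15.9% and 10.5%. Its mean relative level of 8.35 ± 17.7 points (SD, 9 libraries) thus came from 3 Nons libraries, those of days 4, 6 and 7. Bmp8a, a signal in male germ cells, had a mean of 7.13 points, with 44.1% at day 0 as its highest value. Its close paralogue Bmp8b had a mean of 0.778 points. Whether the likeness of these genes affected the assignment of reads to either window was not tested. Bmp7, which acts in kidney and eye, stood at 5.26 points.

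Bmp4, which induces mesoderm and germ cell precursors, had a mean of 4.27 points beginning at 15%. Its control values from day 4 to day 7 were 36.8%, 29.8%, 22.9% and 2.67%, beside knockdown values of 24.1%, 34.3%, 17.5% and 10.2%. Relative to other promoters both arms were highest at day 4 (Nons 17.6 and knockdown 9.07 points) and lowest at day 7 (-6.21 and 0.492). Bmp2, a heart and amnion signal, was near the other promoters at 0.397 points. The lowest were Bmp5, a skeletal signal, Bmp3, which restrains bone formation, and Bmp10 of the heart, at -3.44, -3.09 and -2.77 points. Bmp1 and Bmp15 had means of 0.915 and -0.895 points.

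Of the 6 pairs of neighbouring ligands with complete windows, some differed in level and some did not, and none was tested. Wnt6 and Wnt10a, with 5′ ends 19.6 kb apart, had means of 3.09 and -3.94 points, but -2.59 and -0.317 in the windows at their RefSeq starts. Wnt3 and Wnt9b, 24.3 kb apart, had means of 10.2 and 0.957, and Wnt3a and Wnt9a, 16.2 kb apart, of 0.02 and 4.12. The RefSeq start of Wnt9b lay far upstream of its GENCODE 5′ end (-25451 bp), in a window with a mean of 1.68. The distance of Wnt9b from Wnt3 thus also depends on the annotation. Fgf6 and Fgf23, 57.3 kb apart, were both low (-3.61 and -1.17), and Bmp1 and Fgf17, 122 kb apart, had means of 0.915 and -2.04. RefSeq places the 5′ end of 10 of 47 comparable members in another window than GENCODE does, and for Fgf11 and Fgf13 the window at the RefSeq start had means of -0.890 and -2.07 points in place of 3.73 and 7.74. For Wnt3 the RefSeq start lay 25 bp downstream, in a stretch without a complete window. A further 3 members had a window with no value in 1 library. Wnt4 had none at day 0 and Fgf9 and Wnt10b had none in the knockdown at day 7. Their other values ran from 0% to 52.7% for Wnt4, from 7.58% to 29.2% for Fgf9 and from 6.67% to 37.6% for Wnt10b.

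Ligand windows were rich in GC, and against other promoters of like GC content their median level was lower. Their median GC content was 55%, against 48.8% for other promoter windows, and 25 of 48 fell in the upper 2 of 10 GC deciles of the other promoters. Among other promoter windows the median relative level rose from -4.00 points in the lowest GC decile to 6.76 in the highest. The 16 members in that highest decile had a median of 3.72 points, and the 9 in the decile below it had 0.915 against 4.55. Set against other promoters of the same GC decile, the median member stood at -2.15 points, against 0.645 for other promoter windows, and 32 of 48 members (66.7%) were below 0, against 44.9% of the others. Of the Wnt genes 15 of 17 lay below their GC decile (median -2.82 points), including Wnt11 (-8.36), Wnt10a (-7.43) and Wnt3a (-5.90). Only Wnt8a (7.07) and Wnt3 (4.28) were above. For Fgf 11 of 20 were below (median -1.91) and for Bmp 6 of 11 (median -0.654). These counts describe lists and carry no test, and no difference between families was tested. The place of the 5′ end within its window was not matched either. It lay near the downstream edge in a larger part of the Wnt windows than of the Fgf or Bmp windows.

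**Figure D2:**
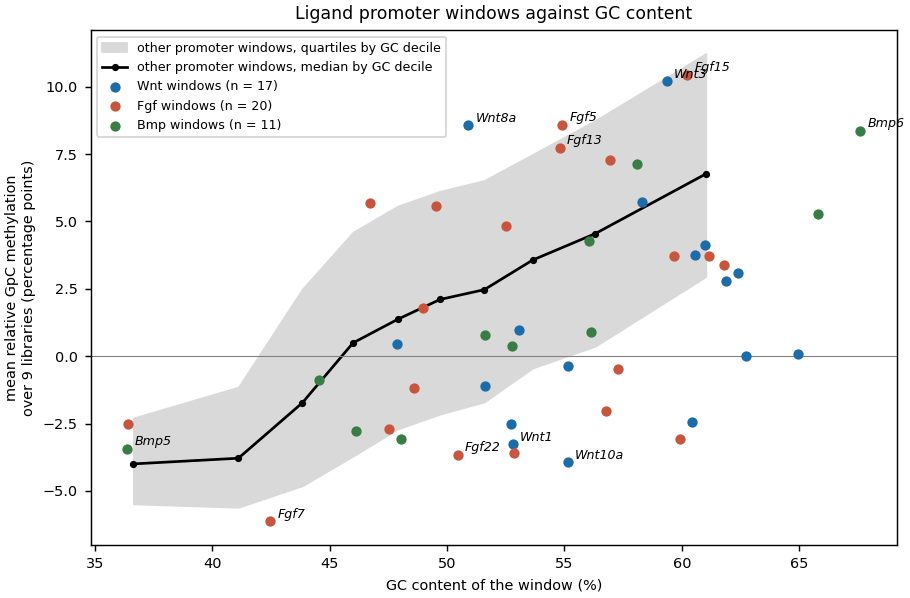
Mean relative GpC methylation over 9 libraries (y, percentage points) against GC content of the window (x, percent) for each ligand window, with the median and quartiles of other promoter windows by GC decile. Of the 48 points, 34 fall below the plotted median of their decile (32 when each library is matched before averaging), with Wnt8a, Fgf5 and Wnt3 among those above.

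By CpG content the CpG-rich members, pooled over the families, stood lower than like promoters and the CpG-poor members slightly higher. With a ratio of observed to expected CpG of 0.6 or more taken as CpG-rich, 14 of 48 member windows (29.2%) were CpG-rich, against 21.6% of other promoter windows. The CpG-rich members had a median mean relative level of 3.95 points, against 7.16 for other CpG-rich promoters. CpG-poor members stood at -0.427 points, against -1.06. By family the CpG-rich medians were 1.43 for 6 Wnt, 6.71 for 4 Fgf and 6.20 for 4 Bmp windows. The CpG-poor medians were 0.439, -0.829 and -0.895 points. Over the 48 members, Pearson's r of mean relative level was 0.458 with GC content and 0.573 with the CpG ratio, and for other promoters it was 0.515 and 0.740, all across windows of the same libraries. By family r with GC content was 0.184 over 17 Wnt, 0.422 over 20 Fgf and 0.890 over 11 Bmp windows. Single windows agreed weakly between libraries, with a median r of 0.155 over the 36 pairs of libraries among members and of 0.321 among other promoters.

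Receptor and target genes of the same pathways, pooled, had higher medians than the ligands. Of 88 genes in lists of receptors, antagonists and targets, 80 had a complete window, and 64 of these had a mean above the library medians (median 5.49 points). The median was 7.02 points for 28 receptor genes and 7.20 for 25 target and feedback genes, against 1.42 for 27 antagonists and binding proteins. Against promoters of the same GC decile the receptors stood at 2.10 points and the targets at 3.94, whereas the antagonists stood at -0.106. Not every list was high. Fgf receptors had a median of -0.249 points over 5 genes (-1.50 by GC decile), and Wnt targets stood at -0.163 by GC decile over 7 genes. Promoters of 7 pluripotency genes had a median of 10.2 points. No difference between these lists was tested.

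**Figure D3:**
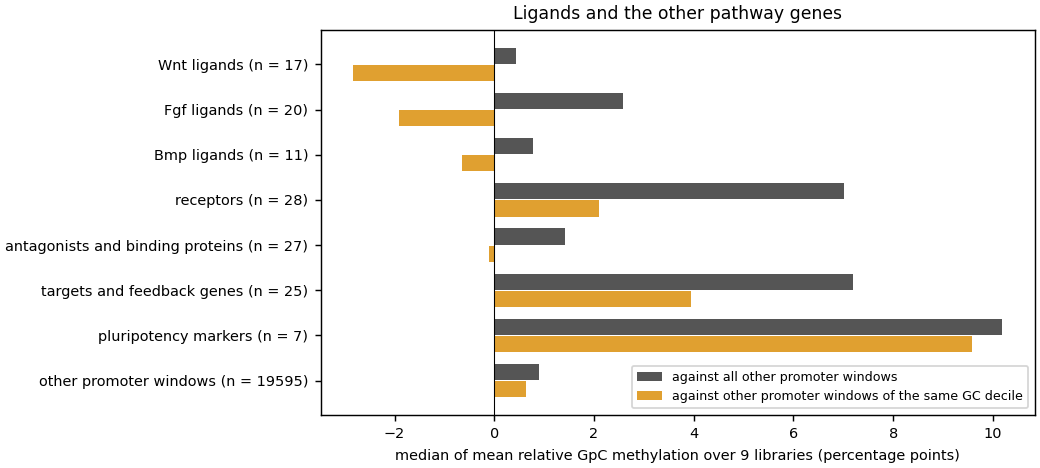
Median over genes of the mean relative GpC methylation over 9 libraries (x, percentage points) for the ligand families and the pooled lists, against all other promoter windows (grey) and against those of the same GC decile (orange). Orange ligand bars are negative (Wnt -2.82, Fgf -1.91, Bmp -0.654), while those of the receptors (2.10) and targets (3.94), each pooled over the 3 pathways, are positive.

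Accessibility of the ligand genes peaked at the window that held the 5′ end. Averaged over libraries, the median member window was 5.43 points above the median of all windows, next to 1.48 points in the window upstream and 2.51 in the window downstream, and other protein-coding genes gave 5.48, 1.09 and 1.45. In the first window downstream the Wnt genes stood at 3.97 points, against 1.54 for Fgf and 1.52 for Bmp. The windows are not aligned to the 5′ end, which stood from 6.52% to 99.2% of the way along a member window (median 62.5%). It lay near the downstream edge, at 86.8% to 99.2%, for Wnt1, Wnt2, Wnt3, Wnt5a, Wnt6, Wnt9a, Wnt9b, Wnt10a and Wnt16. The other Wnt windows had it from 11.8% (Wnt11) to 73.9% (Wnt5b). Among Fgf and Bmp windows only Fgf2, Fgf16, Fgf22 and Bmp8b had it as near to that edge, so placement differed between the families. The part of this placement in the Wnt value was not tested. Windows wholly inside the genes, 1106 in 50 genes, had a median level of 13.1%, as did 352422 body windows of other genes. Relative to the median of those, member body windows had a median mean relative level of 0.405 points, against 0.431 for other genes. The promoter window exceeded the median body window of the same gene in 39 of 47 genes (83%), by a median of 4.64 points, and in 83.7% of other genes, by 5.74 points. The excess had a median of 6.17 points for Fgf, 4.64 for Wnt and 4.11 for Bmp.

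**Figure D4:**
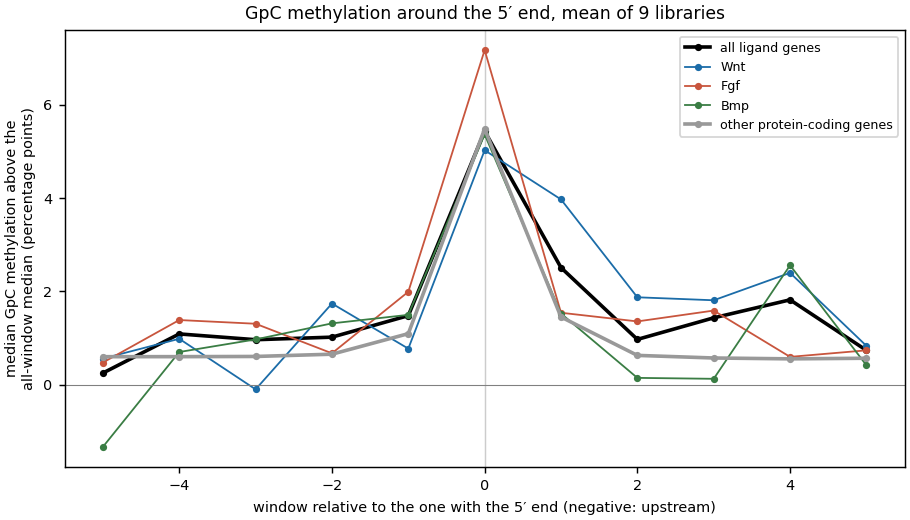
Median GpC methylation (mean of 9 libraries) above the all-window median (y, percentage points) by window position from the one with the 5′ end (x, 5 windows to each side) for ligand families and other protein-coding genes. All lines peak at 0, where the members stand at 5.43 and other genes at 5.48 points, and the Wnt line stays at 3.97 in the next window downstream. The place of the 5′ end within its window varied between genes and was not matched.

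Among the libraries, Nons at day 6 stood apart for the ligands. There the median member was 4.16 points above other promoters and 33 of 48 members were above them, with family medians of 6.12 for Wnt, 2.58 for Fgf and 7.59 for Bmp. In the other 8 libraries the median over all members lay between -1.46 and 1.02 points. The knockdown at day 6 gave 0.03 points, with 24 of 48 members above, and -1.58, -0.064 and 2.14 points for Wnt, Fgf and Bmp. Averaged over libraries, the median member stood at 0.362 points, and at -0.134 points when the libraries of day 6 were left out. At Nons day 4 only 15 of 48 members were above other promoters (median -1.46), and Fgf genes were lowest (-3.77). In the undifferentiated cells 11 of 17 Wnt and 7 of 11 Bmp genes were above other promoters, but 5 of 20 Fgf genes.

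The effect of Smarcc1 depletion was asked within each day. Relative to other promoters, the median member was 3.23 points higher in the knockdown than in Nons at day 4, with 31 of 48 higher, and 2.17 points lower at day 6 (median difference -2.17), with 18 of 48 higher. At days 5 and 7 the median differences were 0.145 and 0.853 points. For other promoter windows the medians were 0.155, 0.828, -0.185 and -0.042 points at days 4 to 7. Of these 19595 windows, 9946 were higher in the knockdown at day 4 and 9658 at day 6. By family the medians at day 4 were 2.94, 5.31 and 1.70 and at day 6 -4.93, -0.730 and -4.00 points for Wnt, Fgf and Bmp.

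No member window passed the test for a knockdown effect shared by the 4 days. In a limma fit over all 829493 windows, with day as a block, the smallest Benjamini-Hochberg adjusted p among members was 0.938, and 0 windows of the table (0%) had an adjusted p under 0.05. At an unadjusted p under 0.05, limma placed 2 members higher in the knockdown (Fgf11 and Fgf15), where 5.14% of other promoter windows were, and 2 lower (Bmp6 and Fgf3), where 5.08% were. A shift of the same sign on all 4 days was seen upwards in 4 members (Fgf11, Fgf15, Bmp3 and Wnt16), against 6.77% of other promoters, and downwards in 2 (Bmp6 and Wnt8b), against 6.02%. As shares of the 48 members these counts came to 4.17% or 8.33%, near the background. The standard error of a member's effect lay between 3.59 and 6.98 points, with a median of 4.13, so changes of a few points were not detectable. Much larger effects, of -24.1 points for Bmp6 and 22.4 for Fgf11, did not pass either, so the lack of calls does not exclude changes of that size.

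Bmp6 had the largest decrease, of which the values stand above. Knockdown minus Nons gave -44.3, -0.177, -37.7 and -14.1 points in day order, so that day 5 showed almost no difference, and the limma effect was -24.1 ± 5.64 points (SE, unadjusted p = 0.000547, adjusted p = 0.938). Fgf11, an intracellular Fgf, had the largest increase. After 17.1% in undifferentiated cells, the control libraries read 11.1%, 30.6%, 0% and 2% from day 4 to day 7 and their knockdown partners 21%, 28.8%, 49.1% and 28.6%, so that the arms lay far apart at days 6 and 7 but close together at day 5. The limma effect was 22.4 ± 5.41 points (SE, unadjusted p = 0.000729, adjusted p = 0.938). The Fgf11 window lay mostly inside the gene, since its 5′ end stood 9.94% of the way along it.

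Fgf15 was higher in the knockdown by 12.4, 17.3, 7.35 and 12.6 points at days 4 to 7, the most even of the larger shifts. The limma effect was 12.4 ± 3.67 points (SE, unadjusted p = 0.00371, adjusted p = 0.938). Its neighbour Fgf3 had an effect of -9.76 ± 4.42 points (SE, limma unadjusted p = 0.0416, adjusted p = 0.938), though it was higher in the knockdown at day 6. Smaller shifts of a single sign belonged to Bmp3 (3.50 points), Wnt16, a bone signal (3.14), and Wnt8b of the forebrain (-7.87). Wnt16 was named after its values were seen. The primitive streak ligands Wnt3 and Wnt3a had effects of -6.62 ± 4.82 and -6.09 ± 6.02 points, and Bmp4 and Fgf8 of -0.102 ± 4.06 and -0.248 ± 5.23 (limma, SE).

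**Figure D5:**
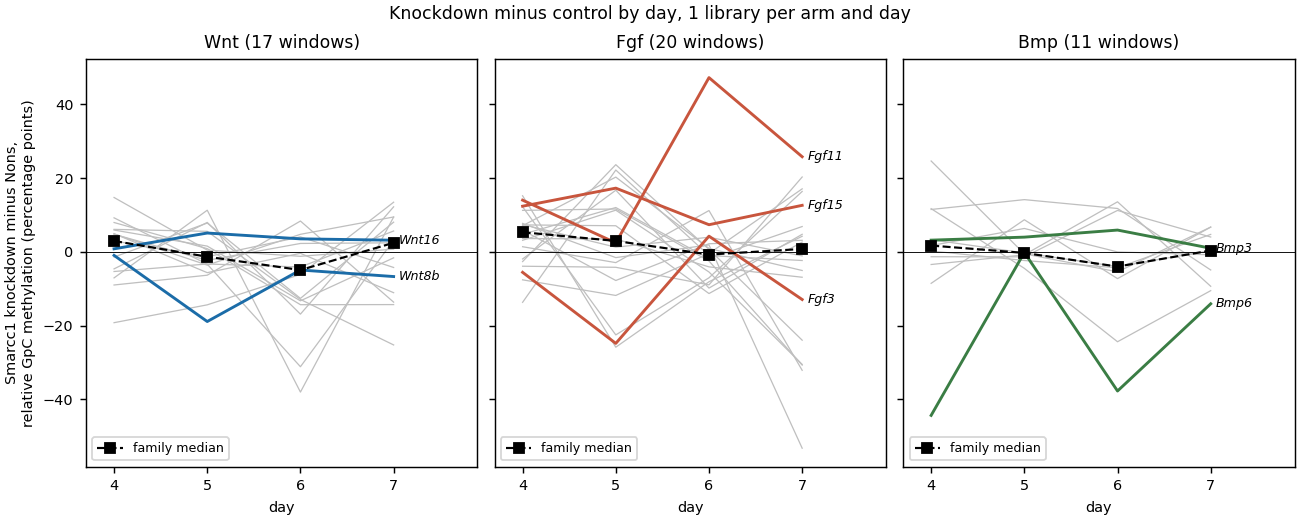
Relative GpC methylation in the Smarcc1 knockdown minus Nons (y, percentage points) at days 4 to 7 (x) for each ligand window, with family medians as black squares and windows named in the text in colour. The family medians lie above 0 at day 4 and below 0 at day 6, and single windows such as Bmp6 (-44.3 at day 4) and Fgf11 (47.2 at day 6) move far more than the medians.

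A time course shared by both arms was asked with limma over days 4 to 7, with the arm as covariate. No member passed (smallest adjusted p = 0.511), nor did any window of the table (0% at an adjusted p under 0.05). At an unadjusted p under 0.05 there were 4 of 48 members (8.33%), against 17.0% of other promoter windows, so the ligands were not richer in such windows. They were Fgf13, Fgf15, the phosphate hormone gene Fgf23 and Wnt8a. Fgf13 (ENSMUSG00000031137.17, chrX:59567509-59569413) measured 28.6% in undifferentiated cells. With the control hairpin it read 14.6%, 51.1%, 18.9% and 14.6% from day 4 to day 7, and with the Smarcc1 hairpin 6.56%, 42.7%, 11.8% and 35.7%. Relative to other promoters the mean of both arms was -6.49, 18.5, 0.109 and 15.9 points at days 4 to 7, so the window was open at day 5 in both arms and at day 7 chiefly in the knockdown (limma, unadjusted p = 0.0027, adjusted p = 0.511). Fgf15 was lowest at day 6 in both arms (means of 18.8, 7.54, -0.195 and 14.3 points). As a mean of both arms, Fgf23 was above other promoters at day 5 (9.41 points) and below them at day 4 (-8.55). The mean for Wnt8a was below them only at day 6 (-2.30 points, against 10.7 to 17.7 on the other days). There the knockdown library alone was below (-9.46 points), and Nons was above (4.86).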

How the data were processed

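NOMe-seq was deposited for 9 libraries. The authors aligned reads with Bismark to mm10 masked at sites that differ between FVB and CAST, called GpC methylation, and computed in Seqmonk the deposited percent of methylated GpC calls in consecutive windows (of 200 read positions per the labels) with both alleles merged. Depth per window was not given. Of 833294 windows, 833044 lay on chromosomes 1 to 19 and X, and 3551 of these without a value in every library were left out.

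Promoter windows held the 5′ end of a GENCODE M21 protein-coding gene. Percent values were centred on the median of other promoter windows per library. Both limma fits (3.58.1, R 4.3.3) covered all windows of the 8 libraries of days 4 to 7, tested the knockdown (day as block) or the day (arm as covariate), and used Benjamini-Hochberg adjustment at 0.05. The days stand in for replicates, so an effect of a single day is not tested. Scripts used Python 3.11.15, and the fits were tested on simulated data.

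Members and pathway lists were chosen with earlier results of these data known. Values were given for the 3 highest and 3 lowest windows per family, for ligands with textbook roles in pluripotency exit and gastrulation, for the 3 largest knockdown differences of 1 sign in each direction, and for the 3 smallest p-values of the day test. Alternatives were other centring, GC-matched and long non-coding RNA references, promoters by window centre within 1 kb, removal of windows at 0 or 100%, means, fewer members, RefSeq starts, and each day left out.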

Additional observations from a re-analysis of the deposited data

Results flagged for a closer look

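The median knockdown minus Nons difference of the ligand promoters, relative to other promoters, had opposite signs at days 4 and 6 in each family, though the Fgf median at day 6 was only -0.730 points. The family medians at day 4 exceeded those at day 6 by 7.87 points for Wnt, 6.04 for Fgf and 5.70 for Bmp. The day 6 values coincide with the Nons library in which the ligand median stood 4.16 points above other promoters. With 1 library for each arm and day, this contrast of day 4 with day 6 was not tested, nor was the part of the Nons day 6 library in it. Among single windows 10 of 17 Wnt, 14 of 20 Fgf and 7 of 11 Bmp were higher in the knockdown at day 4, and 5, 9 and 4 at day 6. Of 19595 other promoter windows 9946 were higher at day 4 and 9658 at day 6.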

How the results depend on the processing

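Of the values recomputed under an alternative, 162 moved by less than the spread over libraries or stayed within 1.5 times the count, and 20 moved by more. The mean over libraries of the member median changed sign within that spread without day 6 (-0.134), with promoters by window centre (-0.518) and with RefSeq starts (-0.0215). Without centring, levels were raw percents, with medians averaging 17.6 for all members, 17.6 for Wnt, 17.2 for Fgf and 18.1 for Bmp, and for body windows 12.7, 13.0, 12.7 and 12.7. Against promoters of the same GC decile the relative level averaged -2.40 for all members and -3.75 for Wnt, in place of 0.362 and 0.374. Body windows stood at 0.297 for all members and 0.700 for Fgf without Fgf12, Fgf13 and Fgf14, a choice made after seeing the data, in place of 0.0446 and 0.0011.

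In limma the members with an unadjusted knockdown p under 0.05 fell from 4 to 2 without windows at 0 or 100% (4.85% of windows tested). For the day test, no centring gave 13 members at an adjusted p under 0.05 (12.7% of all windows) and 28 unadjusted (39.6%), where library-wide levels enter. Unadjusted counts, 4 in the centred fit (9.35% of all windows), were 8 under quantile normalization (5.88%), 2 with promoter windows alone (6.42% of those) and 7 without day 5 (6.00%). Shares over all windows are not a like background for promoters, since 17.0% of other promoter windows were called in the centred fit. The share of other promoters was not counted without centring, under quantile normalization or without day 5. Members higher in the knockdown on all 4 days fell from 4 to 1 without centring, and members lower from 2 to 1 against GC deciles. No ligand window held the 5′ end of another gene, coding or long non-coding, so leaving out shared windows changed nothing. Day was the block of the knockdown fit. No paired analysis was possible because each group had 1 library with no replicate number to pair beyond the day.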
